A study of Mus musculus with 3 samples.

Results

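Inner root sheath and hair shaft cells were taken from the cells in which 500 or more genes were detected and mitochondrial UMIs were no more than 10%, as those that carried 1 or more UMIs in at least 3 hair keratin and trichohyalin genes. These genes had to make up at least 0.1% of the cell's UMIs, and Ptprc and Pdgfra, which mark leukocytes and fibroblasts, had to be at 0. The rule lists 8 genes, of which 7 were matched and used here: Krt25, Krt27, Krt28, Krt71, Krt73, Tchh and Krt35. It found 1507 members among 32377 cells that passed the filters on genes and mitochondrial UMIs. The control library (CON) held 385 of them, the irradiated library (UV) 723 and the library irradiated and treated with ruxolitinib (Rux) 399.

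The study irradiated the back skin of mice and asked which cell programs a topical JAK inhibitor changes in photoaged skin. The labels describe wild-type female C57BL/6J mice aged 8 weeks, and all 3 groups share this genotype, sex and age. CON mice received no UV and the ointment vehicle (DMSO in Aquaphor), and UV mice received vehicle and, on alternate days over 12 weeks, mixed UV light (UVA, 0.60 mW/cm2, with UVB, 3.5 mW/cm2). Rux mice had the same irradiation and an ointment of 1.5% ruxolitinib, an inhibitor of JAK1 and JAK2, after each session. Unsorted cells from the whole depth of the back skin, sampled 1 day after irradiation ended, were run as 1 droplet library per group. The number of mice behind each library was not given in the sources used here, so animal, library and treatment cannot be told apart and no test between groups was possible. Every interval below is a 95% interval that covers counting error only. With 10x UMIs the level of a gene is given in CPM, its UMIs per 1000000 UMIs of the cells named, a library is read as 1 sample, and a ratio of 2-fold or more is used as a size, not as a test.

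The labelled sex and the counts went in different directions in all 3 libraries. Xist, the RNA that coats the inactive X chromosome of females, was at 0.173, 0.274 and 0.228 CPM in the CON, UV and Rux members. The Y-linked genes Ddx3y (68.8, 57.0 and 59.9 CPM), Uty (70.5, 62.1 and 67.6 CPM), Eif2s3y (78.8, 83.4 and 80.8 CPM) and Kdm5d (12.6, 9.69 and 11.7 CPM) were counted in each. The groups are therefore named here by their labelled treatment alone. The libraries shared few cell barcodes (50 between CON and UV, 28 between CON and Rux, 40 between UV and Rux), and no member's barcode occurred in more than 1 library.

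The hair follicle is built in concentric layers from dividing matrix cells in its bulb. Matrix cells that enter the inner root sheath make the type I keratins Krt25, Krt27 and Krt28, which pair with the type II keratins Krt71 and Krt73, and they harden through trichohyalin (Tchh), a granule protein that transglutaminases crosslink. Cells that enter the hair shaft make another set of keratins, among which Krt35 comes early, and later Krt31, Krt33b, Krt34 and the keratin-associated proteins. The transcription factor Gata3 is known for its role in the inner root sheath, and Foxn1, Hoxc13, Dlx3 and Lef1 for theirs in the hair shaft and matrix. The inner root sheath is only made while a follicle grows.

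The genes of the rule lie in 3 places of the mm10 genome. Krt25 (chr11:99315516-99322951), Krt27 (chr11:99345565-99351104) and Krt28 (chr11:99364872-99374903) lie close together in the type I keratin cluster, with Krt35 (chr11:100092193-100096241) in the same cluster. Krt71 (chr15:101733949-101743109) and Krt73 (chr15:101793308-101802346) are in the type II cluster. Tchh (chr3:93442330-93449077), on the plus strand, lies apart from the other genes of the rule. RefSeq promoters (build GRCm38.p6) were matched for 6 of these genes. The 250 bases before the transcription start are shown for 4 of them, 2 type I and 2 type II keratins, because the members split below by which of the 2 types they carried. The windows are chr11:99322952-99323201 for Krt25, chr11:99351119-99351368 for Krt27, chr15:101743098-101743347 for Krt71 and chr15:101802361-101802610 for Krt73, all on the minus strand and printed along the gene. Capitals mark 3 motifs that were searched for on both strands. The first is the box of the core promoter, with the letters TATAAA. The second is a motif that factors such as Gata3 are known to bind, with the letters AGATAA. The third is the core that homeodomain factors such as Lhx2 and the Dlx family are known to bind, with the letters TAATTA.
Krt25: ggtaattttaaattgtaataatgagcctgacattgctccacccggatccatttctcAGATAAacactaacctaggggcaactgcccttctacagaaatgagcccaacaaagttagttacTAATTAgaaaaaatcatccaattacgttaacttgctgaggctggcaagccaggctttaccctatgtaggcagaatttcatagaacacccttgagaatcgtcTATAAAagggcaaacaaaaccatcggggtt
Krt27: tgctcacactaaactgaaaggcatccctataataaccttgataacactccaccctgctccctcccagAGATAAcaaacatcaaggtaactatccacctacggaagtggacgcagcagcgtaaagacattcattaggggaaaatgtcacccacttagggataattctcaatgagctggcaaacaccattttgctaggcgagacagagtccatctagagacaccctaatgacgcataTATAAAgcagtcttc
Krt71: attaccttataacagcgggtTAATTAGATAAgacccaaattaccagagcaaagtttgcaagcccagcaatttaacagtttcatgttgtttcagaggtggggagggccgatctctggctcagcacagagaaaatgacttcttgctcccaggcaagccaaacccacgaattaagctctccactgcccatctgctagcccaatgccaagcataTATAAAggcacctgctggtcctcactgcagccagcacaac
Krt73: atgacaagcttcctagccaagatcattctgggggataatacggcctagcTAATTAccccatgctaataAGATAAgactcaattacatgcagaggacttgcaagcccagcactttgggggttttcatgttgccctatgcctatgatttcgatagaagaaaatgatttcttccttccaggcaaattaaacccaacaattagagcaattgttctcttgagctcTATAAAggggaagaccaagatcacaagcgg
The core promoter box was found in 5 of the 6 promoters, in all but that of Tchh, and in 12.4% of 32851 promoter windows of this length. The second motif was found in 5 of 6 against 9.99%, and the third in 4 of 6 against 4.84%. Krt25, Krt71 and Krt73 held all 3, as did 0.268% of all windows. In Krt71 the matches of these other motifs overlap. A match of letters is a description of the sequence and not a binding site.

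The members had deep profiles, which a rule that asks for UMIs in 3 genes favours. Their median UMI count was 25239 in CON, 24100 in UV and 27043 in Rux, against 8205, 7945 and 9838 over all cells past the filters and 16753, 19862 and 19927 over all epithelial cells, members included. Their median number of genes was 5227, 5046 and 5210. Their median mitochondrial share was 2.79%, 3.16% and 3.28%. The summed UMIs of the members were 11556214, 21872179 and 13131993. Of the members, 30, 42 and 15 were among the cells with the highest doublet scores of their library, which were left in.

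The genes of the rule chose the members, so their values are a description. Their summed share of a member's UMIs had a median of 0.177% in CON, 0.243% in UV and 0.318% in Rux, and reached 6.82%, 13.6% and 9.62%. Only 178 members were at 1% or more (26, 83 and 69), and 16 were at 5% or more (3, 5 and 8), so most members carried these genes at a low level. The 10 members just above the limit of 0.1% lay between 0.1001% and 0.1032% in CON, with a median of 19 marker UMIs. The 10 cells just below it lay between 0.0972% and 0.0999%, with a median of 20.5. In UV the medians just above and just below were 26 and 22.5, and in Rux 30 and 28.

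Krt25 was at 1209 CPM in the CON members, 2120 in UV and 2933 in Rux, and 90.1%, 97.4% and 98.0% of members had a UMI of it. Krt71 was at 569, 1327 and 2180 CPM, with a UMI in 40.3%, 62.2% and 63.2% of members. For both genes CON was lowest and Rux highest. Krt27 followed the same order at 169, 256 and 300 CPM, and so did Tchh at 158, 271 and 536 CPM. Krt28 was at 717, 638 and 819 CPM. Krt73, the other type II keratin of the rule, had its lowest level in UV (232, 92.5 and 253 CPM), as did Krt35 (265, 208 and 491 CPM). Outside the members these genes were far lower. Other epithelial cells, those with at least 3 UMIs of Krt5 and Krt14 together, had Krt25 at 40.2, 85.3 and 89.99 CPM, and endothelial cells at 16.3, 29.0 and 11.1 CPM.

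**Figure D1:**
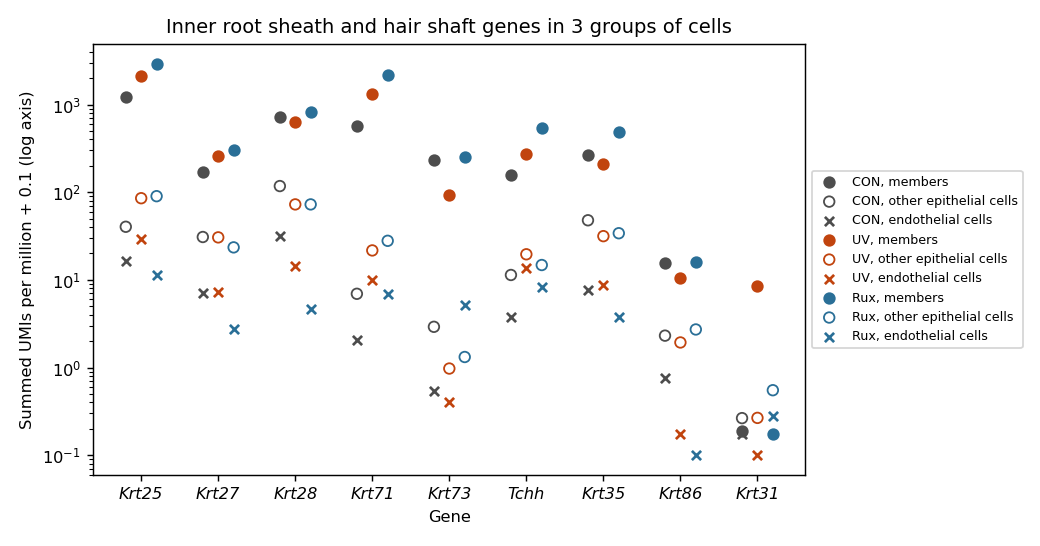
Level of each gene of the rule, Krt86 and Krt31 (CPM plus 0.1, log axis) in the members (filled circles), other epithelial cells (open circles) and endothelial cells (crosses) of the CON, UV and Rux libraries, 1 library per group. Krt25, Krt27, Krt71 and Tchh step up from CON to UV to Rux in the members, while Krt73 and Krt35 are lowest in UV. The genes of the rule chose the cells, so their levels are a description.

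The rule favours the inner root sheath, since Krt35 is the only shaft keratin among the 7 genes, so the split that follows uses the values that chose the cells and is a description. Members with more than 3 times as many UMIs of inner root sheath genes as of shaft keratins, with 1 added to the latter, numbered 1329. Those with the reverse numbered 82, and 96 lay between. The inner root sheath share was 82.9% in CON (319 of 385, interval 78.7 to 86.5), 90.04% in UV (651 of 723, 87.6 to 92.1) and 89.97% in Rux (359 of 399, 86.6 to 92.7), and 60 members lay near a limit, at ratios of 2 to 4. Among members at 1% or more of marker UMIs the order turned, with CON highest. The late shaft keratins went against the name. Krt34 had 0 UMIs in all 3 libraries, Krt33b 0, 1 and 0, and Krt81 2, 3 and 5. Krt31 had 1, 185 and 1 UMIs, of which 181 came from 1 UV member. Krt86 was at 15.5, 10.4 and 16.1 CPM. Shaft-leaning members were thus defined mainly by the early keratin Krt35. Over all members Krt36 had 43, 288 and 315 UMIs.

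Many members carried the type I keratins without their type II partners. Krt71 and Krt73 were both at 0 in 204 of the CON members (52.99%, interval 47.9 to 58.1), in 259 of the UV members (35.8%, 32.3 to 39.4) and in 135 of the Rux members (33.8%, 29.2 to 38.7), with Krt25, Krt27 or Krt28 counted in each. Both types were counted in 181, 463 and 264. These genes are part of the rule, so the shares are a description. Krt71 was also counted in 6.16%, 19.4% and 21.4% of other epithelial cells and in 2.69%, 8.61% and 8.89% of endothelial cells, lowest in CON as in the members.

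Cells of other types met the keratin part of the rule as well, and whether through free RNA or doublets was not tested. Among endothelial cells, with UMIs of Pecam1 and Cdh5, it was met by 0.821% in CON (8 of 974), 0.578% in UV (6 of 1038) and 0.246% in Rux (1 of 406), at median depths of 8778, 8951 and 9629 UMIs. It was met by 0.854%, 2.85% and 0.933% of cells with Ptprc and by 0.943%, 2.07% and 0.982% of cells with Pdgfra. Cells with both Dct and Pmel, genes of pigment cells, met it more often, at 6.75%, 14.2% and 7.23%. Their median depths were 22907, 11531 and 13744 UMIs. The members' shares of all cells lay above the endothelial values in each library, and below the values of the cells with Dct and Pmel.

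Members made up 3.36% of the cells of CON (interval 3.04 to 3.71), 6.56% of UV (6.102 to 7.04) and 4.03% of Rux (3.65 to 4.44). The share was highest in UV, and its interval did not meet those of the others. With every cell thinned to 2000 UMIs, which left out 843, 921 and 626 shallower cells, the order stayed the same at 1.42%, 2.89% and 2.06%. The limit of 0.1% alone left out a further 750 cells in CON, 347 in UV and 224 in Rux. Were these cells counted as members, CON would be highest, slightly above UV, and Rux lowest, so the order depends on that limit. As a share of epithelial cells alone the members were 10.0% of CON, 38.9% of UV and 27.2% of Rux, since CON held 3458 other epithelial cells and UV and Rux held 1137 and 1068. How much of each layer was released when the skin was dissociated cannot be told apart from how much was there.

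Clustering used the most variable genes, with the genes of the rule left out and no batch correction between libraries. It split the members into 12 clusters, numbered by size. A cluster's leading genes, those of the rule aside, follow from how it was made, and all are given to describe it. Cluster 4 (163 members) was led by Tchh, Crym, S100a3, Prr9 and Krt73 and had Krt25, Krt27 and Krt28 at 10145 CPM in sum with Krt71 and Krt73 at 7273 CPM. It is called inner root sheath-like here, though some of its cells carried shaft genes. Krt35 was at 675 CPM in it, counted in 34 of 163 cells. Krt32 and Krt82, keratins of the shaft cuticle, had 185 and 189 UMIs, in 13 and 7 cells. Cluster 4 held 95 of the 178 members at 1% or more of marker UMIs. Cluster 7 (129 members) was led by Krtap8-1, Selenbp1, Dapl1, Krt35, Dsg4 and Krt36, had Krt35 at 2632 CPM and held 68 of the 82 shaft-leaning members. It is called hair shaft-like. Cluster 2 (212 members) was led by Gata3, Fos, Cenpf and Id1, and 6 (132 members) by Krt75, the keratin of the companion layer, with Krt71 at 2748 CPM.

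Clusters 1, 3 and 5, with 585 members together, held type I keratins nearly alone. Cluster 1 was led by Shroom4, Ntn1, Sema3e and Thbs1, cluster 3 by Defb6, Krt14, Nrg1 and Cst6, and cluster 5 by Saa3, Foxq1 and Nrp1. Krt25, Krt27 and Krt28 summed to 2151, 1551 and 2062 CPM in these clusters, while Krt71 and Krt73 summed to 52.6, 65.7 and 19.3 CPM. Krt14 is a keratin of the outer root sheath and basal layer, so its place among the leading genes of cluster 3 goes against the name inner root sheath. Cluster 9 (82 members) was led by Pdzk1ip1, Asprv1, Krt16 and Krt79, genes known from the upper follicle and cornifying epithelium. Cluster 8 (89 members) was led by the erythrocyte genes Hba-a2 and Hbb-bs, with histone genes after them, and had Krt25 at 1768 CPM. In clusters 10 and 12 genes of other cell types led as well. Cluster 10 (70 members) had Ccl21a and Col3a1, with 50 of its members among the highest doublet scores. Cluster 11 (35 members) was led by Dlg2, Il23r and Slc2a9, which name no cell type. Pecam1 was also among its leading genes, but the endothelial genes Cdh5, Kdr and Emcn were at 0 in it, Krt25 was at 1940 CPM and 0 of its members were among the highest doublet scores. Cluster 12 (10 members) had the pigment genes Pmel, Ptgds and Dct, with 7 of its members among the highest doublet scores.

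**Figure D2:**
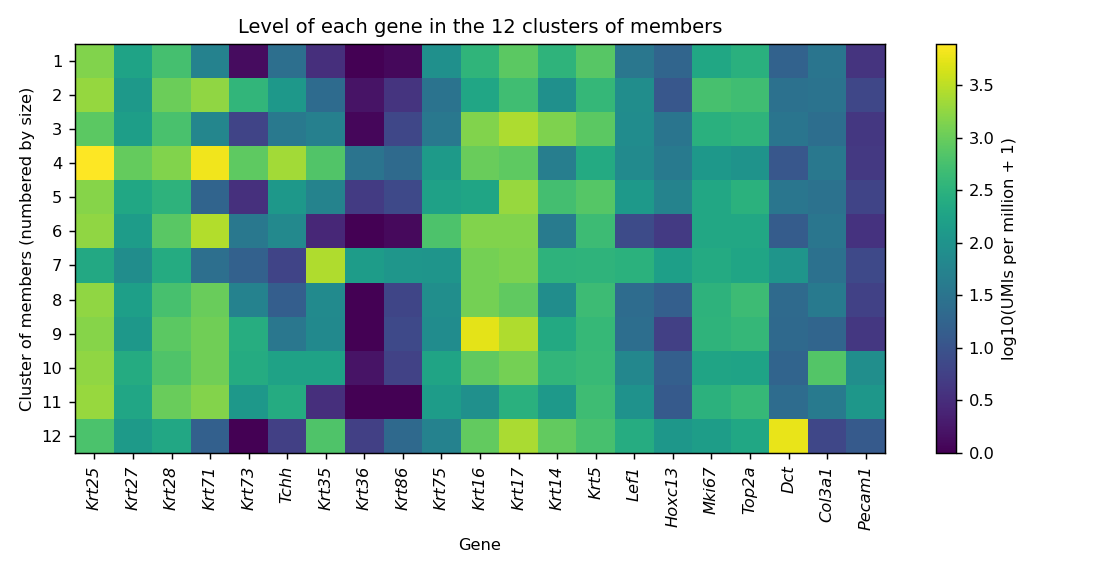
Level of hair keratins and other marker genes (columns) in the 12 clusters of members (rows), with colour for log10 of CPM plus 1 and all libraries summed. Cluster 4 carries both keratin types and Tchh, cluster 7 carries Krt35, and clusters 1, 3 and 5 carry Krt25, Krt27 and Krt28 with little Krt71 or Krt73.

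The libraries filled different clusters. Clusters 1, 5, 6 and 8 together held 4 of the 385 CON members (1.04%, interval 0.284 to 2.64), 385 of the 723 UV members (53.3%, 49.5 to 56.9) and 226 of the 399 Rux members (56.6%, 51.6 to 61.6). Clusters 3 and 9 held 204 of the CON members (52.99%), 62 of the UV members (8.58%) and 7 of the Rux members (1.75%). The UV and Rux members filled the first set to shares whose intervals overlap, and CON was nearly absent from it. Both sets were put together by how the libraries filled their clusters, so these shares and intervals are a description. Clusters 2, 4 and 7 had at least 20 members in every library, with 78, 82 and 52 in cluster 2, 20, 72 and 71 in cluster 4, and 56, 48 and 25 in cluster 7. With 1 library per group, a cluster that only some libraries fill and a difference between those libraries cannot be told apart.

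**Figure D3:**
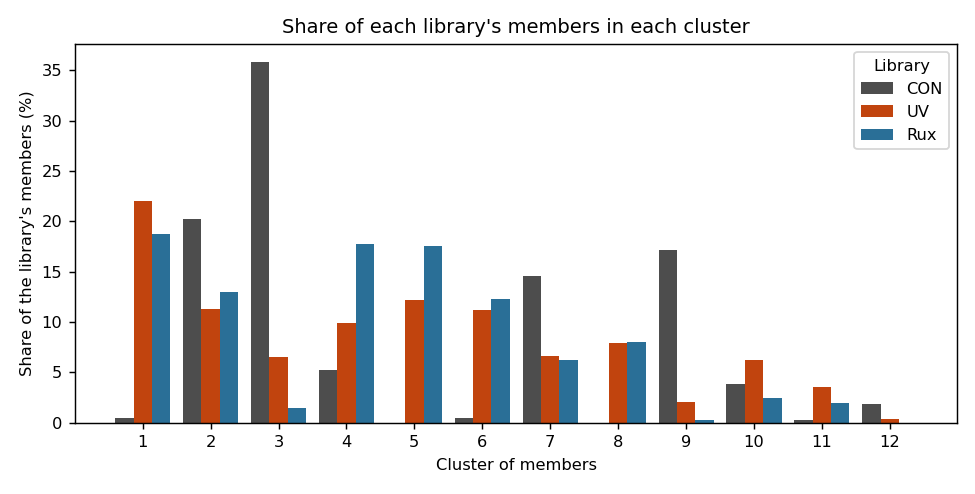
Share of each library's members that fell in each of the 12 clusters (percent), with bars for CON, UV and Rux, 1 library each. CON members lie mainly in clusters 2, 3, 7 and 9, and clusters 1, 5, 6 and 8 hold 4 CON members.

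The comparison of UV with CON asked which genes the members carried at another level after irradiation. Of 8254 genes with enough UMIs, 144 (1.74%) were at least 2-fold higher in UV and 156 (1.89%) at least 2-fold lower, 3.63% together, and the median log2 ratio over all of them was −0.08. The UV library is also the reference of the Rux comparison, so the values of the 2 comparisons are given side by side and not as independent results. In the second comparison 37 of 8126 genes (0.455%) were at least 2-fold higher in Rux than in UV and 34 (0.418%) at least 2-fold lower, 0.874% together, with a median of −0.03. Rux against CON gave 173 higher (2.11%) and 246 lower (3.00%) of 8193, 5.11% together. Over all members, fewer genes were past 2-fold between Rux and UV than between either and CON, an order that did not hold within cluster 2 (2.27% higher and 2.27% lower for UV over CON, 1.41% and 3.50% for Rux over UV).

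Among the inner root sheath keratins 2 of 6 measured genes were at least 2-fold higher in UV than in CON over all members, Krt71 (log2 ratio 1.22, interval 1.18 to 1.26) and Krt26 (1.14, 0.79 to 1.52; 6.75 and 14.9 CPM). Krt73 was lower (−1.32, −1.41 to −1.24), and of all genes 1.74% were at least 2-fold higher and 1.89% at least 2-fold lower. Against UV, Rux had Krt73 higher by 1.45 (1.37 to 1.53) and Krt71 by 0.72 (0.69 to 0.74). All of these but Krt26 chose the cells. The list's median of UV over CON was 0.71, and −0.41 with equal weights for clusters 2, 4 and 7. Of the shaft keratins only Krt35 and Krt86 had enough UMIs in both libraries, with Krt36 added in the Rux comparison, and Krt35 was 1.24 higher in Rux than in UV (1.18 to 1.29). Of 57 keratin-associated protein genes only Krtap13-1 and Krtap8-1 were measured. Krtap8-1 was at 1.12, 21.1 and 29.8 CPM in CON, UV and Rux, and 224 of its 461 UV UMIs came from 1 member.

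Among keratins of neighbouring layers, Krt16, Krt17 and Krt14 were lower in both irradiated libraries than in CON, while Krt5 (540, 562 and 556 CPM) and Krt6a (48.3, 53.1 and 50.4 CPM) differed little, and the median of the 7 measured was 0.06 in UV over CON. Krt16 was at 2341, 635 and 600 CPM (log2 ratio UV over CON −1.88, interval −1.91 to −1.85), and Krt17 at 2424, 1033 and 1047 CPM (−1.23, −1.25 to −1.21). Krt14 was at 730, 305 and 282 CPM (−1.26, −1.30 to −1.21). In each case UV and Rux lay together and CON above them. Krt75 was higher in UV (63.9, 149 and 195 CPM; 1.22, 1.11 to 1.34). Krt14, Krt16 and Krt75 were among the leading genes of clusters 3, 9 and 6, in that order. From CON came 138 of 191, 66 of 82 and 2 of 132 members of those clusters. For Krt14, Krt16 and Krt75 a difference in level and a difference in which clusters were filled cannot be told apart over all members. Krt15, a keratin of follicle stem cells, was lower in Rux than in UV (85.0, 106 and 49.4 CPM; −1.10, −1.23 to −0.97). Of 7 measured keratins of the companion layer and outer sheath, 1 was at least 2-fold higher and 3 were lower in UV than in CON (1.74% and 1.89% of all genes), with 0 and 1 in Rux against UV (0.455% and 0.418%).

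The transcription factors of the hair lineages had a median log2 ratio of −0.48 in UV over CON over 23 genes, below the −0.08 of all genes. Foxq1 (4.93, 20.7 and 37.5 CPM) and Runx1 (114, 274 and 254 CPM) were at least 2-fold higher in UV, by 2.06 (1.67 to 2.49) and 1.26 (1.17 to 1.35). Nfatc1, Lhx2 and Sox21 were at least 2-fold lower, so 2 of 23 were higher and 3 lower, against 1.74% and 1.89% of all genes. Nfatc1, known from follicle stem cells, was at 42.2, 12.0 and 9.44 CPM (−1.82, −2.04 to −1.60), and Lhx2, another stem cell factor, at 121.8, 55.2 and 44.0 CPM (−1.14, −1.25 to −1.03). Foxq1 was among the leading genes of cluster 5, with 0 CON members, and Nfatc1 among those of cluster 9, with 66 of 82 from CON. For Foxq1 and Nfatc1 a difference in level and a difference in which clusters were filled cannot be told apart over all members. Gata3 was at 114, 66.5 and 80.9 CPM (−0.78, −0.89 to −0.67). In Rux against UV 0 of 23 reached 2-fold, a count that the 0.874% of all genes past it would also give. Foxn1 was at 23.2, 30.4 and 47.6 CPM, 0.64 higher in Rux than in UV (0.48 to 0.80), and Hoxc13 was at 40.8, 26.01 and 41.9 CPM, 0.69 higher (0.52 to 0.86). Their median there was 0.13.

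Signals of the hair matrix had a median of −0.33 in UV over CON over 24 genes, with 1 at least 2-fold higher and 5 lower, against 1.74% and 1.89% of all genes. Shh, which the matrix sends to its surroundings, was at 21.2, 2.56 and 2.89 CPM (−3.04, −3.50 to −2.63). Bmp2 was at 31.8, 8.64 and 6.24 CPM (−1.88, −2.14 to −1.62) and Wnt10b at 17.6, 5.26 and 7.84 CPM (−1.75, −2.09 to −1.41). The BMP and Notch targets Id1 (309, 148 and 122 CPM) and Hes1 (112, 55.3 and 63.3 CPM) were lower by 1.06 and 1.02 on the log2 scale. For each of these the Rux level lay with UV and not with CON. The gene that was higher was Fgf5, a signal known for ending the growth phase of the hair cycle. It had 0 UMIs in the CON members, 642 in UV (29.4 CPM, 176 members) and 333 in Rux (25.4 CPM, 108 members). Set against 3 UMIs over the CON members, the level in UV was at least 113-fold higher. Fgf5 was among the leading genes of cluster 6, which held 2 CON members. The list's median in Rux over UV was 0.14, with 1 of 20 at least 2-fold higher (0.455% of all genes), Wnt10a (11.2, 9.83 and 19.7 CPM; 1.00, 0.74 to 1.27).

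**Figure D4:**
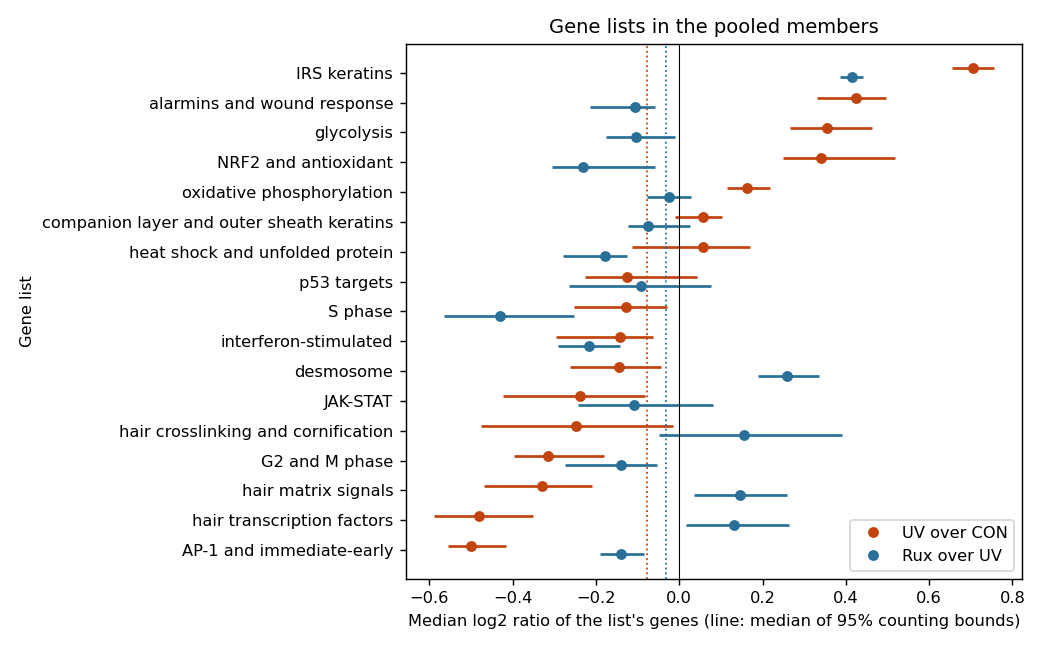
Median log2 ratio of 17 gene lists in the members (points; lists of shaft keratins and keratin-associated proteins, with few measured genes, are not drawn) for UV over CON and Rux over UV, with lines from the median of the lower to the median of the upper 95% counting bounds and dotted lines at the medians of all genes compared. Of the lists drawn, the immediate-early, hair transcription factor and matrix signal lists lie lowest in UV over CON and the inner root sheath keratins highest, and in Rux over UV the S phase list lies lowest.

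Genes of JAK-STAT signalling, the pathway that ruxolitinib blocks, had a lower median than all genes in UV over CON over all members. The median over 20 genes was −0.24 (−0.0635 with equal weights for clusters 2, 4 and 7), with 2 above 0 against 38.9% of all genes. Of the 20, 1 gene, Irf1, was at least 2-fold lower, against 1.89% of all genes. Irf1, an interferon regulatory factor, was at 87.1, 24.7 and 27.1 CPM (−1.82, −1.97 to −1.67). Stat3 stepped down across the libraries, at 172, 87.9 and 58.7 CPM, with −0.97 for UV over CON (−1.06 to −0.88) and −0.58 for Rux over UV (−0.70 to −0.46). Jak1 did likewise (83.7, 52.8 and 38.8 CPM), and Jak2 was at 160, 112 and 112 CPM. The receptor chains Il6st (22.9, 34.7 and 27.7 CPM) and Il6ra (23.1, 29.8 and 24.4 CPM) were the 2 above 0. Over 21 genes the median in Rux over UV was −0.11, close to the −0.03 of all genes. The feedback inhibitor Socs3, itself a STAT3 target, was the 1 gene of 21 at least 2-fold lower, against 0.418% of all genes. Socs3 was at 31.6, 19.2 and 7.46 CPM (−1.36, −1.70 to −1.05), and Socs1 was at 22.5, 22.1 and 11.1 CPM (−0.99, −1.27 to −0.72).

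The interferon-stimulated list summed to 1060, 1016 and 812.5 CPM, with H2-D1 the most abundant. Of 24 matched genes, 9 had enough UMIs for UV over CON (median −0.14) and 6 for Rux over UV (median −0.22). None of them reached 2-fold, against 3.63% and 0.874% of all genes, which does not set the list apart. Within clusters 2, 4 and 7 the list's median of UV over CON was 0.14, 0.37 and −0.10. With equal weights for these clusters it changed sign. Ifitm3 was at 174, 150 and 92.0 CPM, the largest difference among the 6 (−0.71, −0.80 to −0.61). The antigen presentation genes B2m (139, 139 and 121 CPM) and H2-D1 (299, 274 and 233 CPM) differed less. Immune markers themselves summed to 14.9, 10.9 and 16.3 CPM in the members, with Cd74 the most abundant at 6.92, 6.40 and 4.57 CPM, Ptprc at 0 by the rule and Cd3e at 0 in UV.

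Antioxidant genes under NRF2 had a median of 0.34 in UV over CON over 18 genes, with 14 above 0 (38.9% of all genes were) and 4 at least 2-fold higher (1.74%). Within clusters 2, 4 and 7 the median was 0.29, 0.20 and 0.02. In cluster 7, 8 of 15 were above 0, with 0 at least 2-fold higher and 2 lower, against 4.73% and 8.52% of all genes there. The 4 genes over all members were Gclc, the rate-limiting enzyme of glutathione synthesis (28.6, 73.1 and 49.0 CPM; 1.35, 1.18 to 1.53), Srxn1 (14.5, 38.0 and 28.8 CPM), Gpx3 (22.5, 50.9 and 31.5 CPM) and Cat (7.01, 15.1 and 11.9 CPM). Thioredoxin, Txn1, was at 234, 444 and 346 CPM (0.93, 0.86 to 0.99). Between Rux and UV the median was −0.23 with 0 at 2-fold and 3 of 18 above 0, against 43.1% of all genes (a median of 0.0071 with equal weights for clusters 2, 4 and 7), and Rux lay between CON and UV for the genes named. Slc7a11, the cystine transporter, had 5 UMIs in CON and 251 in UV. Glycolytic enzymes had medians of 0.36 and −0.10 over 12 genes, and Gapdh was at 535, 803 and 724 CPM. Oxidative phosphorylation had 0.16 and −0.03 over 21, and no gene of either list reached 2-fold in either comparison.

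Immediate-early genes had a median of −0.50 in UV over CON, and 2 of 20 were above 0, against 38.9% of all genes, with none at 2-fold. Atf3 was at 753, 460 and 365 CPM (−0.71, −0.75 to −0.67), Junb at 881, 579 and 522 CPM and Nr4a1 at 250, 136 and 148 CPM. These genes are also known to respond to tissue dissociation. In Rux over UV their median was −0.14, which changed sign with equal weights for clusters 2, 4 and 7 (0.03, 0.15 and −0.32 within each). Targets of p53 had medians of −0.13 and −0.09 over 17 genes. Cdkn1a was at 389, 345 and 326 CPM. Bbc3, a gene of cell death, was the 1 gene of 17 at least 2-fold lower in UV than in CON, against 1.89% of all genes. It was at 34.01, 14.8 and 13.9 CPM (−1.20, −1.42 to −0.98). Heat shock and unfolded protein genes had 0.06 and −0.18 over 20, with 0 at 2-fold in both.

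The alarmin and wound list had a median of 0.42 in UV over CON over 11 genes, with 3 at least 2-fold higher and 2 lower (1.74% and 1.89% of all genes). The growth factor Areg was at 89.2, 284 and 164 CPM (1.67, 1.58 to 1.77), and the neutrophil-attracting chemokines Cxcl1 (58.8, 125 and 138 CPM) and Cxcl2 (15.5, 36.0 and 54.3 CPM) were the others above 2-fold. Krt16 and Defb6 were the 2 below it. In Rux over UV the median was −0.11 and 0 of 11 reached 2-fold (0.874% of all genes), with Areg 0.79 lower on the log2 scale (−0.86 to −0.72). Crosslinking and cornification genes had medians of −0.25 over 8 and 0.16 over 10. Ivl (5.45, 17.3 and 25.5 CPM) was the 1 gene of 8 at least 2-fold higher in UV than in CON, against 1.74% of all genes. Padi3, which modifies trichohyalin, was the 1 of 10 at least 2-fold higher in Rux than in UV, against 0.455% of all genes. It was at 10.1, 9.05 and 22.7 CPM, 1.32 higher on the log2 scale (1.06 to 1.59). Desmosome genes had −0.14 and 0.26 over 14, and the latter changed sign at 1% marker UMIs. In Rux over UV 2 of the 14 were at least 2-fold higher, against 0.455% of all genes. The desmosomal cadherins Dsg4 (19.0, 17.4 and 37.4 CPM; 1.10, 0.91 to 1.30) and Dsc1 (22.3, 14.4 and 29.6 CPM; 1.04, 0.82 to 1.26) were at least 2-fold higher in Rux than in UV.

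Over all members the cell cycle lists were below the median of all genes in both comparisons, but with equal weights for clusters 2, 4 and 7 the G2 and M phase median of UV over CON turned to 0.50. The S phase list had medians of −0.13 over 19 genes and −0.43 over 18, and 0 of the 18 were above 0 in Rux over UV, where 43.1% of all genes were above 0. Pcna was at 265, 204 and 151 CPM and Uhrf1 at 90.9, 72.7 and 48.0 CPM. The G2 and M phase list had −0.32 over 19 and −0.14 over 18. Over all members no measured gene of either list reached 2-fold in UV over CON or in Rux over UV, and 2 of 19 S phase genes were at least 2-fold lower in Rux than in CON, where 3.00% of all genes were. After thinning to 2000 UMIs, 55.3% of the CON members (interval 50.2 to 60.4), 49.0% of the UV members (45.3 to 52.8) and 41.2% of the Rux members (36.3 to 46.2) had a UMI of Mki67 or Top2a. Among other epithelial cells the shares were 32.5%, 29.9% and 20.5%, in the same order.

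The 10 lowest ratios in UV over CON among well-measured genes began with Krt79, a keratin of the upper follicle (143, 13.2 and 5.18 CPM; −3.44, −3.62 to −3.26), and 46.3% of its CON UMIs came from 5 members. Krt79, Krt16 and Defb6 were among the leading genes of cluster 9, in which 66 of 82 members were from CON, so over all members a difference in level and a difference in which clusters were filled cannot be told apart for them. Defb6, a defensin, was at 99.6, 16.4 and 8.68 CPM, and 84.5% of its CON UMIs came from 5 members. Irf1, Krt16, Rhbdl3 (83.2, 24.6 and 25.7 CPM), Sbsn (98.5, 32.3 and 39.5 CPM) and Gadd45b (901, 346 and 348 CPM) were lower too. Ptgds (91.9, 12.8 and 1.98 CPM), Dct (331, 56.4 and 13.2 CPM) and Pmel (189, 33.1 and 3.27 CPM) completed the 10, and 92.8%, 84.5% and 89.96% of their CON UMIs came from the 7 CON cells of cluster 12. Without the cells of the highest doublet scores their log2 ratios of UV over CON turned positive, at 0.86, 0.0801 and 0.76. Melanocyte markers as a whole, all 6 counted in each library, summed to 690, 131 and 28.6 CPM in the members with Dct the most abundant, against 1421, 492 and 392 CPM over all cells.

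Among the 10 highest in UV over CON were Glis3 (8.999, 94.5 and 88.6 CPM; 3.38, 3.11 to 3.69), Abca12, Slpi, Sema3e, Mgst1, Gsr, Areg, Gm49890 and Ntn1. Glis3 is a zinc finger transcription factor, and Abca12 a lipid transporter of cornifying cells (19.4, 86.5 and 70.4 CPM). The protease inhibitor Slpi was at 49.5, 190 and 273 CPM and the glutathione reductase Gsr at 40.2, 132 and 114 CPM. The guidance genes Sema3e (33.8, 129 and 73.3 CPM) and Ntn1 (43.5, 131 and 91.2 CPM) were, with Glis3, among the leading genes of cluster 1, which held 2 CON members. Abca12 and Slpi were among those of cluster 6, with 2 CON members, and Mgst1 among those of cluster 8, with 0. For these genes a difference in level and a difference in which clusters were filled cannot be told apart over all members. Mgst1, a microsomal glutathione transferase, was at 65.8, 243 and 259 CPM. It is also the most abundant gene of the sebaceous list, which summed to 133, 305 and 305 CPM with Awat1 at 0 in CON and Rux. The unnamed gene Gm49890 was at 152, 470 and 492 CPM.

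In Rux over UV the lowest ratio was that of Gm47283 (chrY:90784738-90816464), at 250, 740 and 162 CPM (−2.19, −2.26 to −2.13), so UV stood apart from both others for this gene. Krt15, Gm11290 (90.7, 94.1 and 44.4 CPM), Arl4a (65.2, 96.5 and 48.8 CPM), Tex14 (174, 152 and 77.0 CPM), Slc7a5 (57.7, 67.1 and 34.4 CPM), Mthfd2 (60.4, 91.1 and 47.5 CPM), Sox5 (813, 705 and 378 CPM), Plet1 (229, 375 and 202 CPM) and B930036N10Rik (82.6, 69.4 and 37.4 CPM) followed. Slc7a5, an amino acid transporter, and Mthfd2, an enzyme of mitochondrial folate metabolism, are both known ATF4 targets, and Atf4 itself was at 314, 384 and 267 CPM. Of these 10 only Gm47283, Krt15 and Gm11290 were past 2-fold.

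The highest ratio in Rux over UV was that of the haemoglobin gene Hbb-bs (0.692, 9.33 and 111 CPM), of whose Rux UMIs 50.5% came from 1 member and 91.1% from 5. Erythrocyte markers summed to 3.63, 18.5 and 307 CPM in the members against 29.4, 188 and 192 CPM over all cells. S100a3, a protein of the hair cuticle, was at 212, 86.0 and 679 CPM (2.98, 2.91 to 3.06), and 81.3% of its Rux UMIs came from 5 members. Dapl1 (15.8, 74.4 and 189 CPM), Prr9 (30.4, 30.3 and 75.01 CPM) and Gm49425 (135, 89.0 and 178 CPM; chr15:101515920-101517261, in the type II keratin cluster) were higher as well. From 5 members came 51.9% of the Rux UMIs of Dapl1, 35.6% of those of Prr9 and 40.3% of those of Gm49425. Zfp750, a regulator of terminal epidermal differentiation, was at 139, 75.3 and 149 CPM. Rnaset2b and Rnaset2a, near-identical copies between which reads may be split, Rhov (77.8, 37.7 and 72.8 CPM) and Mt4 (186, 100.1 and 184 CPM) completed the list. For Zfp750 and Rhov the Rux and CON levels lay together with UV below them. For Mt4 29.0% of the Rux UMIs came from 1 member and 59.4% from 5, and a UMI of it was found in 56.1% of the CON members and in 26.8% of both the UV and the Rux members.

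The libraries filled the clusters so unequally that differences over all members and differences within a cluster need not be the same, and values were therefore also taken within clusters 2, 4 and 7. At least 2-fold higher in UV than in CON were 186 of 8180 genes in cluster 2 (2.27%), 366 of 7691 in cluster 4 (4.76%) and 383 of 8094 in cluster 7 (4.73%), and lower were 186 (2.27%), 745 (9.69%) and 690 (8.52%). In Rux over UV the higher shares were 1.41%, 2.48% and 3.20% and the lower ones 3.50%, 1.60% and 6.73%. The sums behind these ratios are small, with 20 CON members in cluster 4.

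A first set of genes differed the same way in each of these clusters. Krt17 had log2 ratios of UV over CON of −1.79, −2.36 and −1.54 in clusters 2, 4 and 7, Krt16 of −1.78, −1.06 and −1.88, and Krt73 of −1.21, −1.41 and −1.22, the last with an interval from −3.86 to 0.55. Irf1 had −1.08, −2.32 and −1.14, and Stat3 −0.77, −1.31 and −0.50. Shh had −2.72 in cluster 2 and −3.53 in cluster 4, and in cluster 7 it had 60 UMIs in CON against 0 in UV and 0 in Rux, at least 14.1-fold and 9.44-fold lower against 3 UMIs per library. Higher in UV in all 3 were Mgst1 (1.01, 2.24 and 3.56), Txn1 (1.08, 1.34 and 0.83), Gsr (0.95, 1.52 and 0.98) and Runx1 (1.16, 2.23 and 0.72). Gm47283 was higher in UV than in CON (1.35, 1.31 and 1.83) and lower in Rux than in UV (−2.38, −2.40 and −1.70) in each. Socs3 was lower in Rux than in UV in each (−0.79, −0.73 and −1.97), with intervals that held 0 in clusters 2 and 4.

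The hair genes Krt35 and Dsg4 did not differ the same way in clusters 4 and 7. In the inner root sheath-like cluster 4, Krt25 was at 7297, 8055 and 7681 CPM and Tchh at 2142, 2426 and 2102 CPM, differences smaller than those over all members, while Krt71 was at 4862, 6802 and 6481 CPM. Cluster 4 held 5.20%, 9.96% and 17.8% of the CON, UV and Rux members. In the hair shaft-like cluster 7, Krt35 was at 1235, 3537 and 4235 CPM, Dsg4 at 86.7, 281 and 409 CPM and Dapl1 at 58.5, 1195 and 1918 CPM. Krtap8-1 was at 2.69, 362 and 497 CPM there. UV and Rux lay above CON for each of these 4 genes. Cluster 4 showed another order, with Krt35 at 465, 90.9 and 1157 CPM, S100a3 at 1125, 121 and 2819 CPM, Dsg4 at 70.8, 2.38 and 51.8 CPM and Hoxc13 at 25.3, 9.52 and 61.4 CPM, each lowest in UV. Few cells stand behind these values. Krt35 was counted in 34 of the 163 cells of the cluster, Dsg4 had 5 UMIs in its UV cells, and over all members 1 Rux member held 1282 of the 6446 Rux UMIs of Krt35 and 5 held 81.3% of those of S100a3.

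**Figure D5:**
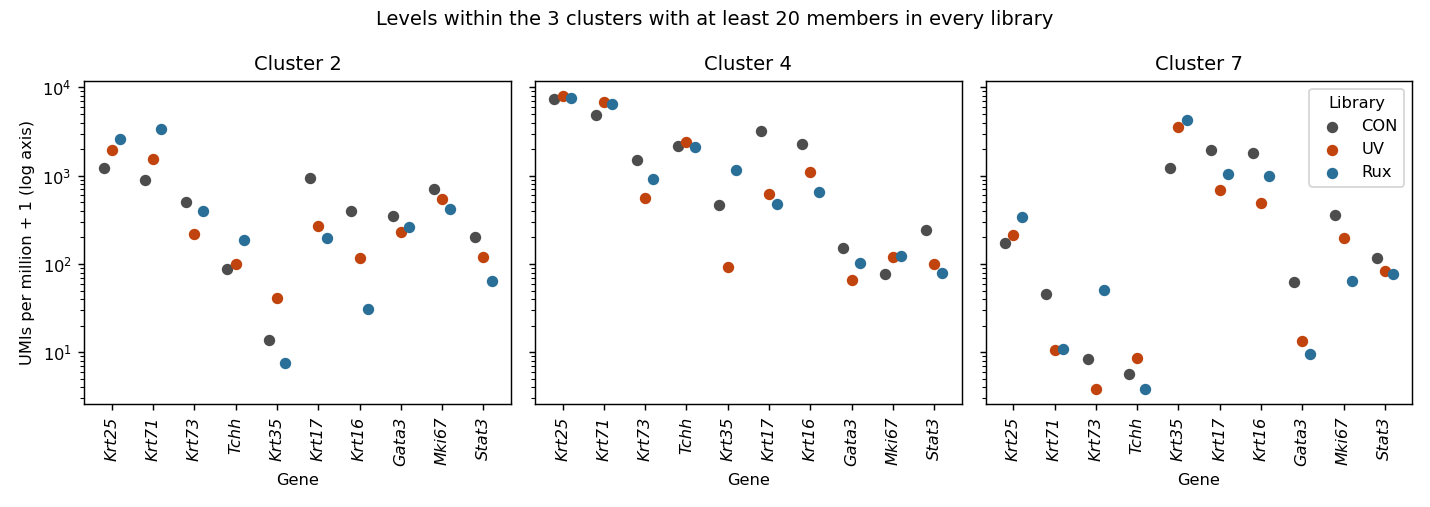
Level of named genes (CPM plus 1, log axis) within clusters 2, 4 and 7 in the CON, UV and Rux libraries, 1 point per library. Krt17, Krt16, Krt73, Gata3 and Stat3 are lower in UV than in CON in each of these clusters, Krt25 and Tchh differ little in cluster 4, and Krt35 is lowest in UV in cluster 4 but lowest in CON in cluster 7.

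Cell cycle genes also depended on the cluster. Mki67 or Top2a was counted, after thinning, in 68.0%, 63.2% and 54.9% of the CON, UV and Rux cells of cluster 2, in 10.0%, 20.8% and 23.9% of cluster 4 and in 28 of 56, 14 of 48 and 5 of 25 cells of cluster 7. The intervals of the 3 libraries overlapped in each cluster. The G2 and M phase list had medians of −0.03, 2.46 and −0.85 in UV over CON in clusters 2, 4 and 7, and of −0.36, 0.03 and −2.42 in Rux over UV. In cluster 4, 13 of 14 genes were at least 2-fold higher in UV than in CON, against 4.76% of all genes there, where the CON value rested on 20 cells, and Top2a was at 18.6, 109 and 109 CPM. In cluster 7, 14 of 16 were at least 2-fold lower in Rux than in UV, against 6.73% of all genes there, and the Rux value rested on 25 cells. The S phase list had medians of −0.19, −0.07 and −1.14 in UV over CON, and in cluster 7 13 of 19 of its genes were at least 2-fold lower, against 8.52% of all genes.

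Set against the other epithelial cells of the same library, the members had 49 of 8169 genes (0.600%) at least 2-fold higher in every library and 413 (5.06%) at least 2-fold lower. The members were chosen on keratin genes of these cells, so this is a description. Genes at 50 CPM or more in the members of every library, those of the rule aside, were ranked by the lowest of their 3 ratios. The highest were Gm49425, Ttyh2 (71.0, 62.7 and 72.9 CPM against 18.8, 17.2 and 23.0 CPM) and Metrnl (146, 165 and 203 against 44.6, 53.8 and 65.4). Lurap1l, Hopx (291, 162 and 204 against 104, 64.3 and 81.1), Myo5b, Csrp2, Wdr47, Myh14, Plxna2, Ankrd13a, Ppp1r2, F3, Pcdh7 and Mpzl2 followed. F3, tissue factor, was at 885, 1090 and 932 CPM against 425, 445 and 383 CPM. Of 22 measured hair transcription factors, 2 were at least 2-fold higher in each library and 2 at least 2-fold lower. The higher ones were Foxn1, by 2.51, 2.42 and 2.08 and Dlx3, by 1.65, 1.25 and 1.49 on the log2 scale. The lower ones were Sox9 (−1.13, −2.65 and −2.76), a factor of the outer root sheath and follicle stem cells, and Barx2 (−4.09, −4.62 and −5.90). Gata3 was at −0.17, −0.67 and −0.40.

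The JAK-STAT and interferon lists had lower medians than all genes in the members against other epithelial cells. The JAK-STAT list had medians of −0.75, −0.92 and −0.79 in CON, UV and Rux over 23 genes, with 6 at least 2-fold lower in each library, and the interferon list −1.12, −1.40 and −1.61 over 11 genes, also with 6, against 5.06% of all genes. Over all genes the medians were 0.01, −0.02 and −0.04. Socs3 was at 31.6, 19.2 and 7.46 CPM in the members and at 142, 171 and 52.1 CPM in the other epithelial cells. Stat3 was at 172, 87.9 and 58.7 CPM against 325, 290 and 160 CPM. Immediate-early genes were lower as well (−0.50, −1.05 and −0.90, 7 of 20 at least 2-fold lower in each), and the S phase list lay slightly above 0 (0.27, 0.42 and 0.19).

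Markers of other cell types and layers were counted in the members at levels that differed between libraries. Fibroblast markers, with Dcn the most abundant (457, 783 and 597 CPM) and Pdgfra at 0 by the rule, summed to 584, 1016 and 815 CPM, against 6149, 9649 and 13092 CPM over all cells. Dcn made up most of this sum. Dcn and Col1a1 were both highest in cluster 10 (1830 and 582 CPM), and over the other 11 clusters Dcn ranged from 103 to 1085 CPM and Col1a1 from 38.3 to 52.6 CPM. Suprabasal markers summed to 697, 309 and 326 CPM, basal markers to 1764, 1345 and 1175 CPM, upper follicle markers to 2872, 1186 and 1191 CPM with Krt17 the most abundant, and follicle stem markers to 225, 138 and 114 CPM. Each of these 4 epithelial lists was highest in CON. Vascular endothelial markers summed to 15.4, 19.2 and 7.23 CPM, pericyte and smooth muscle markers to 35.3, 27.3 and 16.1, skeletal muscle markers to 25.6, 13.8 and 15.2, and dermal papilla markers to 7.44, 9.97 and 5.10 CPM. Their part in the differences above was not tested. With clusters 10, 11 and 12 left out, 362, 649 and 381 members remained.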

How the data were processed

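Full-thickness dorsal mouse skin was profiled as 3 droplet libraries, 1 per group (CON, UV, Rux). The authors deposited raw UMI count matrices of 32285 genes (13170, 12411 and 11287 cells; 165337289, 133972374 and 131570327 UMIs). The submitters' processing notes name Cell Ranger 6.1.2, Seurat 5.3.0 and mm10, while the deposited matrix header names Cell Ranger 7.0.0. No doublets were removed here, and Scrublet scores are given instead.

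The members and gene lists were chosen with earlier results of these data known. Counts of members were summed per library and divided by member UMIs (CPM). A comparison used genes that averaged 10 CPM or more and had 20 or more UMIs over its 2 libraries, and log2 ratios used 0.5 added UMIs. Intervals are exact binomial (95%), and a count of 0 was set at 3 UMIs. The intervals were checked only on simulated sums with counting error alone, which cannot show how they hold under spread between cells. Named genes were the 10 with the largest ratio in each direction among genes averaging 50 CPM with 100 UMIs over both libraries, the genes of the rule left out, and the 15 highest against other epithelial cells. A gene that this rule for naming selected is left out of the text. Alternatives changed the rule, the weights, the scaling and the filter on low counts. Clusters were made with scanpy 1.11.5 (Python 3.11.15, numpy 2.4.6, scipy 1.17.1, pandas 2.3.3, igraph 0.11.9).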

Additional observations from a re-analysis of the deposited data

How the results depend on the processing

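No paired analysis was possible because each group has 1 library, and none could be left out. The order of the member shares (UV above Rux above CON) held under each alternative given here: with 5 of the 8 markers required (0.960%, 2.10% and 1.57% in CON, UV and Rux), at 1% marker UMIs (0.227%, 0.753% and 0.697%), thinned (1.42%, 2.89% and 2.06%) and among epithelial cells (10.0%, 38.9% and 27.2%). None of these lowered the limit of 0.1%, which alone left out 750, 347 and 224 cells. With those cells counted as members, CON would be highest, slightly above UV, and Rux lowest. Without clusters 10, 11 and 12, an alternative chosen after seeing the data like the one on clusters with at least 20 members per library, UV was at 5.89%. The inner root sheath-leaning share was 76.4%, 84.5% and 84.2% at a ratio of 10, and 100%, 94.0% and 95.7% at 1% marker UMIs.

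Counts of 2-fold genes depended on the members. At 1% marker UMIs, UV over CON had 304 higher and 536 lower, Rux over CON 281 and 594, and Rux over UV 119 lower. With a minimum of 10 UMIs alone they were 1651 and 817, 1068 and 1330, and 419 and 1309 in that order. Giving clusters 2, 4 and 7 equal weight gave Rux over UV 61 higher and 177 lower and Rux over CON 468 lower. Equal weight per cell gave Rux over UV 22 and 59, and leaving out clusters 10, 11 and 12 gave 22 lower.

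List medians moved most under a pair of settings: of 36, 15 moved and 6 turned sign with equal cluster weights, and 19 moved and 2 turned sign at 1% marker UMIs. With equal cluster weights the medians of UV over CON were −0.41 for the inner root sheath keratins, 0.50 for G2 and M phase, 0.18 for interferon-stimulated genes (0.0570 with 10 UMIs alone) and −0.0635 for JAK-STAT. Those of Rux over UV were 0.0086 for immediate-early genes, 0.0071 for NRF2 (0.023 at 1% marker UMIs), 0.034 for glycolysis and −0.96 for G2 and M phase. At 1% marker UMIs the desmosome median of Rux over UV was −0.0081. Of 40 ratios of named genes, 36 moved and 2 turned sign at 1% marker UMIs, 33 and 1 did with equal cluster weights, and 27 and 0 with equal weight per cell. A minimum of 10 UMIs alone cannot move these ratios, and totals without keratins left all 40 little changed. The ratios that turned sign were those of pigment cell genes in UV over CON: without the highest Scrublet scores Dct was at 0.0801, Pmel at 0.76 and Ptgds at 0.86, at 1% marker UMIs Pmel was at 1.10 and Ptgds at 2.89, and with equal cluster weights Ptgds was at 0.69. Median-of-ratios scaling shifted all ratios by 0.03, 0.07 and 0.10. The cause of these moves was not tested. Counting depth limits clusters more than the whole, since cluster 4 had 20 CON members.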
